A study of Mus musculus with 2 samples.

Results

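The comparison sets the mouse d8 culture against a selected part of the primed-tagged cells of the same pooled single-cell library, gene by gene. All 9627 cells that carried the d8 tag entered it, against the 350 primed-tagged cells with the highest gate score, called the primed core here, of 1826 primed-tagged cells and 17720 cells in all. The core was selected on measured values: a cell's gate score was its mean, over Pim2, L1td1, Lin28a, Utf1, Enpp3 and Slc7a3, of the natural log of 1 plus reads per 10000. Those 6 gate genes are therefore no finding, and they were left out of every count and ranking below.

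Primed epiblast stem cells (mEpiSCs) correspond to the epiblast after implantation. They hold Oct4 (gene Pou5f1), Sox2 and Nanog together with Fgf5, Otx2 and Dnmt3b, grow on FGF2 and Activin A, and lack most transcription factors of the naive state. AICAR is taken up and phosphorylated by adenosine kinase (gene Adk) to ZMP, an AMP mimic that activates AMP-activated protein kinase (AMPK), and LIF signals through STAT3. The study asked how primed cells pass to the naive state under AICAR and LIF, and d8 lies part-way along that path.

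The groups came from 1 sequenced library in which each of 5 cell populations had been marked with its own antibody-bound tag, and the labels give the strain as 129/Ola. The primed population was the Oct4GIP line, which carries a GFP and puromycin-resistance transgene driven by Oct4 regulatory sequence, was kept with FGF2 and Activin A, and was placed on mouse embryonic fibroblast (MEF) feeders a day before reversion. The d8 population was the same line after 8 days with AICAR and LIF on MEF feeders, in medium with serum replacement and some fetal bovine serum. The AICAR dose was raised during that time. Other tagged populations served only for values side by side: d16 (day 16 of the same treatment), d16+10p (those cells after 10 passages in 2i and LIF) and naive (Rex1-GFP embryonic stem cells in 2i and LIF). Both cultures compared could thus hold MEF feeders, and the study's methods name no step that removed them. The study considered the Oct4-negative cells of its primed population to be feeders. Its methods also give fewer primed cells collected than the 1826 that carried the primed tag here. Whether some of these cells came from another population was not tested. With 1 tagged sample per population there were no replicates, so no test was run. Each value carries the interval of its read counts only, at 95%, and reads without molecular identifiers are not independent molecules.

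Depth was high on both sides. The d8 cells summed to 179944974 reads with a median of 15474 reads and 4116 genes per cell, and the core cells to 8819680 reads with medians of 23822 and 5216. No barcode name was shared between tags (0 of 17720 cells). Each cell had been given its strongest tag alone, so this was fixed in advance and says nothing on mixing of tags. Levels below are CPM: a gene's reads summed over the cells of a group, per 1000000 summed reads of that group. In such sums, fewer cells of a type and less RNA per cell cannot be told apart.

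At the edge of the core, the lowest score inside was 0.543 and the highest outside 0.542, so the limit fell within a continuum. The 350 cells spanned 0.543 to 1.60, with a median of 0.896. The other 1476 primed-tagged cells had a median of 0. Of the d8 cells, 96 reached the core's lowest score, a share of 0.997% (exact binomial interval 0.808 to 1.22%), and 50.8% had no read of any gate gene. The gate genes themselves, as a description of the choice, ran from 89.1 CPM (Enpp3) to 434 CPM (L1td1) in the core and from 5.82 CPM (Slc7a3) to 25.9 CPM (L1td1) in d8.

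**Figure D1:**
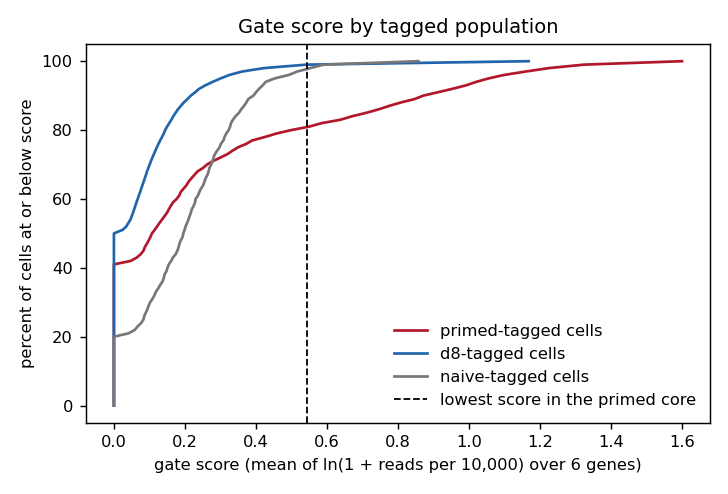
Cumulative share of cells (vertical axis, percent) at or below each gate score (horizontal axis, mean natural log of 1 plus reads per 10000 over 6 genes) in the primed-, d8- and naive-tagged cells. The dashed line is the lowest score in the primed core, 0.543, which 19.2% of primed-tagged and 0.997% of d8 cells reached.

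The name of the core was checked against genes outside the gate. Pou5f1 stood at 439 CPM in the core and 94.2 CPM in the other primed-tagged cells, and Dnmt3b, the de novo DNA methyltransferase of the epiblast, at 189 and 36.9 CPM. Fgf8 (57.9 against 33.7 CPM) and Pou3f1 (70.8 against 32.96 CPM) were also higher in the core than outside it. Otx2 (19.5 against 34.6 CPM) was not, and Fgf5 (62.9 against 59.8 CPM) was nearly level. The naive genes Esrrb (8.05 CPM) and Zfp42 (31.7 CPM) were low in the core beside 123 and 564 CPM in the naive cells. The core is thus marked by Pou5f1, Dnmt3b, Fgf8 and Pou3f1 rather than by every primed gene.

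Across the genome, 7876 genes had at least 20 CPM in either group and at least 100 summed reads. A gene could reach 20 CPM in 1 group alone. Genes low in the core were thus tested only where d8 was high, and the reverse, which in part sets the counts of calls. A gene was called when its level differed at least 2-fold, that is, a log2 ratio (d8 over core, after adding 1 CPM to each) of at least 1 in size. 1147 genes were called higher in d8, 14.6% of those tested, and 728 were called lower, 9.24%. The median log2 ratio of all tested genes was 0.100, so that lists are read against a value near 0. At 4-fold or more there were 192 higher and 92 lower genes, and at 8-fold or more 2 higher and 8 lower. Folds below are on that scale and understate the difference of low genes. Counting intervals are of the read ratio without the added 1 CPM, so that a low gene's log2 ratio can lie outside its interval, on the side nearer 0. No called gene had a counting interval of its ratio that held 0, and among the 50 leading genes (the 25 with the largest ratios each way) the widest interval spanned 1.38 on the log2 scale.

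**Figure D2:**
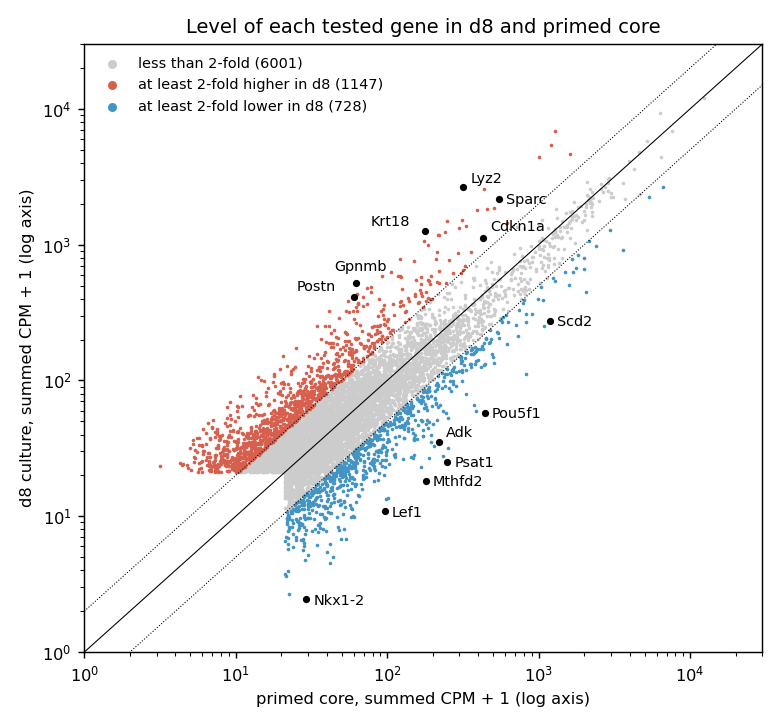
Summed level plus 1 CPM of each of the 7876 tested genes in the primed core (horizontal) and the d8 culture (vertical), both on log axes. Solid and dotted lines mark equal levels and 2-fold differences, red and blue points are the 1147 genes called higher and the 728 called lower in d8, and named genes are black.

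Differences in the higher direction had a flat upper edge: the largest difference was 8.36-fold (Lyz2), and the 25 genes with the largest ratios all lay between 6.53- and 8.36-fold. Genes of macrophages, which pluripotent cells should lack, had reads in the core too. The 10 tested genes of the macrophage list stood in the core at 11.9 to 54.7% of their d8 level, with a median of 14.3%. They also stood at 988 CPM in sum in naive and 587 CPM in d16+10p cells, against 3334 CPM in d8 and 429 CPM in the core. All tagged cells shared 1 cartridge, and d8 cells gave 58.6% of all reads. How far free RNA set the core's level of genes that were high in d8 was not tested here beyond 1 subtraction, added after the data were seen. It removed the profile over all cells from the core until the macrophage list reached 0 there in sum, which took 18.8% of the core's reads, and the log2 ratio then went from 3.06 to 11.37 for Lyz2, from 3.06 to 9.02 for Gpnmb and from 2.82 to 6.50 for Krt18. Lyz2 and Gpnmb had nothing left in the core after it, so that their ratios then rest on the added 1 CPM. Of 263 named genes 109 moved by over 1.5 times in fold and 0 changed direction. The kept direction was largely fixed in advance, because most of the subtracted profile came from d8 cells. The size of the higher ratios, their upper edge included, depends on this choice.

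By the largest ratios the lower genes began with Nkx1-2, a homeobox gene of the caudal epiblast, at 1.44 CPM in d8 and 28.1 CPM in the core (log2 ratio -3.57, interval -4.54 to -4.03). Mthfd2, a mitochondrial folate enzyme, stood at 17.3 CPM in d8 and 179 CPM in the core (-3.30, -3.46 to -3.28). Psat1, which makes phosphoserine, stood at 24.3 CPM in d8 and 247 CPM in the core (-3.29, -3.42 to -3.27). Next came Apln, the apelin ligand (3.53 against 40.7 CPM, log2 ratio -3.20), Lef1, a nuclear factor of the Wnt pathway (9.85 against 95.01 CPM, log2 ratio -3.15), and Ina, a neuronal intermediate filament (4.01 against 42.9 CPM, log2 ratio -3.13). Pclaf, a partner of PCNA at the replication fork (26.9 against 234 CPM, log2 ratio -3.07), and Snrpn, an imprinted splicing gene (30.8 against 252 CPM, log2 ratio -2.99), were among the most abundant of the 25.

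Of the remaining leading lower genes, several are developmental regulators of the epiblast. Gbx2, a homeobox gene (1.66 against 21.3 CPM, log2 ratio -3.07), and Wnt8a, a Wnt ligand (5.76 against 52.3 CPM, log2 ratio -2.98), stood 8.38- and 7.88-fold lower in d8. Apln, Lef1 and Wnt8a were also low in naive cells (1.62, 9.10 and 3.07 CPM), whereas Psat1, Mthfd2 and Trap1a, an X-linked gene, were high there (156, 145 and 193 CPM). Trap1a itself was at 22.2 CPM in d8 and 166 CPM in the core. Tdrkh, a Tudor-domain protein of the piRNA pathway (12.5 against 97.2 CPM, log2 ratio -2.86), Ciart, a clock repressor (4.50 against 39.2 CPM, log2 ratio -2.87), Igdcc3 (5.26 against 40.7 CPM, log2 ratio -2.74), and the potassium channel Kcnj3 (7.05 against 50.8 CPM, log2 ratio -2.69) were lower as well. So were the carbonic anhydrase Car14 (8.89 against 59.8 CPM, log2 ratio -2.62), the ketone body enzyme Bdh1 (3.74 against 27.7 CPM, log2 ratio -2.60) and the noncoding RNAs Platr13 (6.90 against 46.7 CPM, log2 ratio -2.60) and Snora73b (2.65 against 20.5 CPM, log2 ratio -2.56). Vmn2r10 (12.7 against 100.2 CPM, log2 ratio -2.88) and Olfr1388 (31.7 against 204 CPM, log2 ratio -2.65) belong to receptor families with near-identical copies, and their assignment is uncertain. AC127285.1 (8.96 against 58.8 CPM, log2 ratio -2.59) completes the 25.

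Core pluripotency genes were lower in d8 without being absent. Of 10 tested genes of the list, 6 were called lower and 0 higher, with a median log2 ratio of -1.16. Pou5f1 stood at 56.8 CPM in d8 (Poisson interval 55.7 to 57.9) and 439 CPM in the core (425 to 453), a 7.61-fold lower level in d8 (log2 ratio -2.93, interval -3.003 to -2.90). Tdgf1, the Nodal co-receptor Cripto, was at 134 CPM in d8 and 505 CPM in the core, and Nanog at 47.3 CPM in d8 and 130.2 CPM in the core (-1.44). Sox2 differed less, with 118 CPM in d8 and 266 CPM in the core (-1.17). Trim28 (-1.30) and Sall4 (-1.15) were called lower too, whereas Lin28b (-0.70), Rif1 (-0.59), Zfp281 (0.0855) and Podxl (0.48) lay within 2-fold. From the largest difference down, the order was Pou5f1, Tdgf1, Nanog, Trim28, Sox2 and Sall4, and the counting intervals of Pou5f1 (-3.003 to -2.90), Tdgf1 (-1.96 to -1.87) and Nanog (-1.55 to -1.37) did not overlap.

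The share of cells with a read gives the same genes a different view. Each cell was thinned to 5000 reads, which left out 755 shallower d8 and 7 core cells. Pou5f1 then had a read in 83.4% of core cells (79.01 to 87.2%) and in 18.96% of d8 cells (18.1 to 19.8%), and without thinning in 95.7% and 40.7%. Macrophages should lack Pou5f1. In the 940 d8 cells with a read of at least 6 of the 12 macrophage genes, called macrophage-marked below, it had a read in 14.5% of thinned cells (12.2 to 16.98%, median depth 20894 reads before thinning). The d8 share was thus 18.96% over a background of 14.5%. Tdgf1 gave 78.7% in the core, 27.5% in d8 and 20.2% in macrophage-marked cells.

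Primed epiblast genes differed in both directions. 5 of 13 were called lower, 1 higher and 7 neither (median -0.57). Dnmt3b stood at 25.8 CPM in d8 and 189 CPM in the core (-2.82, interval -2.95 to -2.79). Fgf8 (-1.74), Zic5 (-1.48), Zic2 (-1.34) and the POU factor Pou3f1 (-1.22) were lower as well. Fgf5 stood at 73.7 CPM in d8 and 62.9 CPM in the core (0.23) and Otx2 at 27.96 CPM in d8 and 19.5 CPM in the core (0.50), both a little above the core. Sox4 was the member called higher, at 516 CPM in d8 and 166 CPM in the core (1.63). Sox3, below the level limit, had 2.20 against 12.5 CPM.

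The signals that keep primed cells differed by member. Of 13 Nodal and activin genes, 2 were called lower (Tdgf1, and the activin antagonist Fst at 85.2 against 212 CPM, log2 ratio -1.31). The 1 called higher was Inhba, which encodes the Activin A subunit (482 against 72.5 CPM, log2 ratio 2.72). These shares, 15.4% lower and 7.69% higher, stand beside 9.24% and 14.6% of all tested genes and rest on few genes, so they are not read as a result for the list. Nodal (43.4 against 64.7 CPM, log2 ratio -0.57), its antagonists Lefty1 (321 against 624 CPM, log2 ratio -0.96) and Lefty2 (22.4 against 23.02 CPM, log2 ratio -0.0354), and the signal carriers Smad2 (0.57) and Smad3 (0.81) stayed within 2-fold. Among FGF and ERK genes, Fgf15 (8.87 against 45.9 CPM, log2 ratio -2.25), Fgf8 and the ERK-responsive Etv5 (24.9 against 84.9 CPM, log2 ratio -1.73) were lower, and Fgf2 (29.4 against 5.10 CPM, log2 ratio 2.31), Fgf7 (23.7 against 4.76 CPM, log2 ratio 2.101) and the phosphatase Dusp4 (41.8 against 15.9 CPM, log2 ratio 1.34) were higher. The ERK feedback genes Dusp6 (-0.37), Spry2 (-0.70) and Spred1 (0.50) were not called. The ligands that were higher, Inhba and Fgf2, had 78.7% and 72.8% of their d8 reads in the 25% of d8 cells richest in fibroblast matrix reads, which gave 28.2% of all d8 reads. Without those cells 0 FGF and ERK genes were called higher. Fgf2, Fgf7 and Dusp4 reached the level limit through d8 alone, and at a limit of 50 CPM 0 FGF and ERK genes were called higher.

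Serine and one-carbon metabolism had the lowest median of all lists. Cells make serine from glycolysis through Phgdh, Psat1 and Psph, and folate enzymes pass its carbon to purines and thymidylate. Of 14 tested genes of threonine, glycine and one-carbon metabolism, 10 were called lower and 0 higher (median -1.64). After Mthfd2 these included Ahcy (35.8 against 156 CPM, log2 ratio -2.096), Gcat (6.83 against 31.1 CPM, log2 ratio -2.03), the glycine decarboxylase Gldc (5.64 against 26.1 CPM, log2 ratio -2.03) and Shmt2 (27.6 against 112 CPM, log2 ratio -1.99). Tyms, Mthfd1l, Shmt1 and Mthfd1 followed between -1.68 and -1.43. Phgdh was at 41.5 CPM in d8 and 136 CPM in the core (-1.69) and Psph at 10.6 CPM in d8 and 51.5 CPM in the core (-2.17), so all 3 enzymes of the serine route were lower. Asparagine synthetase, Asns (42.4 against 172 CPM, log2 ratio -1.997), was lower also, whereas Atf4 (189 against 258 CPM, log2 ratio -0.45) and the stress genes Ddit3 (0.72), Atf3 (0.77) and Ddit4 (0.75) were not called. Within the ATF4 and stress list, 5 of 13 were lower, namely Mthfd2, Psat1, Asns, Shmt2 and Phgdh, all of them enzymes.

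Adk carried one of the largest single differences among genes that handle AICAR. Adenosine kinase stood at 34.2 CPM in d8 (33.4 to 35.1) and 218 CPM in the core (208 to 228) (log2 ratio -2.63, interval -2.74 to -2.59), a 6.21-fold lower level. After thinning it had a read in 57.1% of core, 12.6% of d8 and 7.19% of macrophage-marked d8 cells. The core, not d8, stood apart here, for Adk was at 37.6 CPM in naive, 32.4 in d16, 36.7 in d16+10p and 65.9 in the other primed-tagged cells. The de novo purine route, in which AICAR monophosphate is an intermediate, had Ppat (25.1 against 91.3 CPM, log2 ratio -1.82), Pfas (20.3 against 49.4 CPM, log2 ratio -1.24), Paics (159 against 371 CPM, log2 ratio -1.22) and Gart (61.7 against 141 CPM, log2 ratio -1.18) called lower. Atic, which consumes that intermediate (53.4 against 91.5 CPM, log2 ratio -0.77), Adsl (-0.98) and Gmps (-0.99) were just inside 2-fold. The nucleoside transporter Slc29a1 (-0.24) and the salvage enzymes Aprt (0.0784) and Hprt (-0.44) were not called. In all, 5 of 14 were lower and 0 higher (median -0.87).

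Genes of fatty acid and cholesterol synthesis lay below the core without exception among those tested. 12 of 17 were called lower, and all 17 ratios were under 0 (median -1.41). On the sterol side were Idi1 (34.3 against 193 CPM, log2 ratio -2.46), Fdps (79.1 against 332 CPM, log2 ratio -2.05), Lss (14.7 against 54.4 CPM, log2 ratio -1.82) and Hmgcs1 (124 against 417 CPM, log2 ratio -1.74). On the fatty acid side were the synthase Fasn (38.6 against 194 CPM, log2 ratio -2.30), the desaturase Scd2 (273 against 1181 CPM, log2 ratio -2.11), Elovl6 (54.5 against 146 CPM, log2 ratio -1.41) and Acaca (15.2 against 37.1 CPM, log2 ratio -1.23), the carboxylase that AMPK phosphorylates. Scd1, below the level limit, had 10.1 against 5.44 CPM. The regulators Srebf1 (-0.85), Srebf2 (-0.87) and Insig1 (-0.88) were lower by less than 2-fold.

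Glycolytic enzymes showed a smaller and graded difference. 9 of 18 tested genes were lower and 0 higher (median -0.97). The lower steps included Pgk1 (270.2 against 825 CPM, log2 ratio -1.61), Ldha (306 against 907 CPM, log2 ratio -1.57), Eno1 (389 against 1072 CPM, log2 ratio -1.46), Pkm (794 against 1989 CPM, log2 ratio -1.32) and Gapdh (1285 against 2945 CPM, log2 ratio -1.20). Gpi1 (0.0249), Pdha1 (0.0534) and Ldhb (0.57) were not called. Nuclear genes of oxidative phosphorylation had 0 of 76 lower and 0 higher (median -0.18), and cytosolic ribosomal proteins 0 and 0 of 86 (median -0.13). The cytosolic tRNA synthetases stood between, with 7 of 18 lower (median -0.84).

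Cell cycle genes were lower almost throughout. Of 15 tested S phase genes, 14 were called lower (median -1.62), and of 15 G2 and M phase genes, 13 (median -1.38), with none higher. Rrm2, which makes deoxynucleotides, stood at 56.99 CPM in d8 and 245 CPM in the core (-2.08). The replicative helicase genes ran from Mcm5 (43.3 against 185 CPM, log2 ratio -2.07) to Mcm2 (75.8 against 181 CPM, log2 ratio -1.24). Uhrf1, which guides maintenance methylation at the fork (35.9 against 150.3 CPM, log2 ratio -2.04), and Cdc6 (7.09 against 32.5 CPM, log2 ratio -2.05) were in the same range. In mitosis, Plk1 (22.6 against 81.4 CPM, log2 ratio -1.81), Ccna2 (36.6 against 128 CPM, log2 ratio -1.78), Ube2c (82.7 against 265 CPM, log2 ratio -1.67) and Top2a (131 against 355 CPM, log2 ratio -1.43) were lower, while Cenpe (-0.72) and Bub1 (-0.997) were not called.

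Promoters of the S phase genes are shown because the genes stood lower together and E2F is the known regulator of that group. RefSeq (GRCm38.p6) gave 13 of the 16 listed genes a promoter, here the 250 bases before the start site. The letters TTTGGCGC, TTTCCCGC, TTTGCCGC or TTTCGCGC, on either strand, were in 5 of them (38.5%) and in 2.16% of 27025 genes with a promoter, by name Mcm5, Mcm6, Mcm7, Cdc6 and Uhrf1. Capitals mark those letters in the promoters of Mcm5 (chr8:75109259-75109508, plus strand) and Mcm6 (chr1:128359706-128359955, minus strand), where matches overlap, printed 5′ to 3′.
Mcm5: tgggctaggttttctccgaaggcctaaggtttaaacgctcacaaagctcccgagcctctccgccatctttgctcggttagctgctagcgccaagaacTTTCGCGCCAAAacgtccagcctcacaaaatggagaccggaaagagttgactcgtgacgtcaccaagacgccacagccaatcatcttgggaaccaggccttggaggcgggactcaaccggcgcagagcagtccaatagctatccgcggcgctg
Mcm6: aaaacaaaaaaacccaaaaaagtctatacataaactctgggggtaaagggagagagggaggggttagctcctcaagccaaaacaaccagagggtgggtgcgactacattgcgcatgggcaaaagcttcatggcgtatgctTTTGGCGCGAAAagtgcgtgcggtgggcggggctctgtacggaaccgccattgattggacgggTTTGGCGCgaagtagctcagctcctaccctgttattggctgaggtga
A match is a description of letters and says nothing on binding in these cells.

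Chromatin regulators followed in part. 4 of 7 DNA methylation genes were lower: Dnmt3b, Uhrf1, Tdg (42.8 against 106 CPM, log2 ratio -1.29) and Dnmt1 (43.2 against 94.9 CPM, log2 ratio -1.12). Dnmt3a (88.9 against 63.04 CPM, log2 ratio 0.49), Tet1 (-0.46) and Tet3 (0.44) were not called. Among Polycomb genes, Ezh2 (113 against 258 CPM, log2 ratio -1.19) and Epop (11.7 against 51.02 CPM, log2 ratio -2.03) were lower of 9 tested, and Suz12 (0.18) and Eed (0.0186) were near level. That share of 22.2% rests on 2 genes, beside 9.24% of all tested genes.

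**Figure D3:**
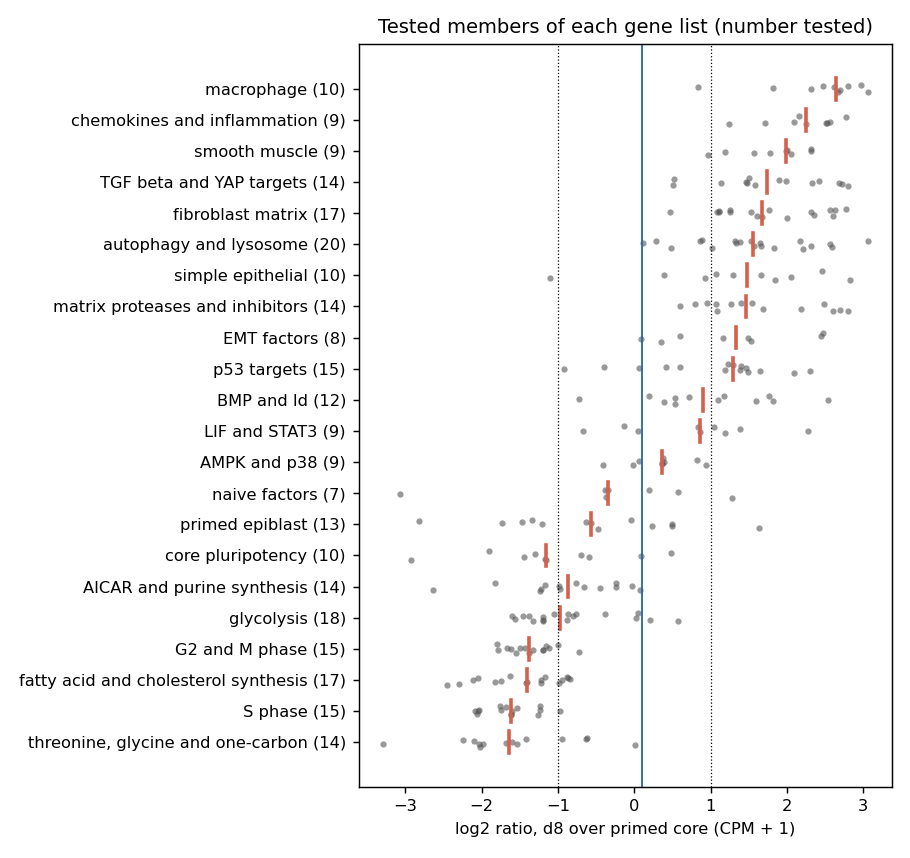
Each grey point is the log2 ratio (d8 over primed core, horizontal axis) of 1 tested member of the list named at left, whose number tested is in brackets, and red bars are list medians. Dotted lines mark 2-fold differences and the blue line the median of all tested genes, 0.100. Medians run from -1.64 (one-carbon) to 2.64 (macrophage).

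The higher genes formed 3 sets, chosen after their values were seen, by the d8 cells that held their reads. The first set was held by macrophage-marked cells, which were 9.76% of d8 cells and gave 12.8% of d8 reads. The second was held by the 2407 d8 cells (25%) with the largest share of reads on the fibroblast matrix list, called fibroblast-rich below, which gave 28.2% of d8 reads. The third was spread beyond both. These subsets are ranges along a score, not types: 414 d8 cells had reads of 5 macrophage genes, and 157 had reads of exactly 6.

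Macrophage genes headed the ranking. 9 of 10 tested members of the list were called higher (median 2.64), none of the 12 being at 0 in d8 or the core. Lyz2, which encodes lysozyme, stood at 2650.4 CPM in d8 and 316 CPM in the core (log2 ratio 3.06, interval 3.01 to 3.12), and 92.9% of its d8 reads came from macrophage-marked cells. Since that mark used Lyz2 itself, genes outside the list are the better guide. Gpnmb, a lysosomal glycoprotein (517 against 61.3 CPM, log2 ratio 3.06), had 84.9% of its d8 reads there, Mpeg1, a perforin-like protein (105 against 13.04 CPM, log2 ratio 2.91), 88.6%, and Cybb, the phagocyte oxidase (42.96 against 5.10 CPM, log2 ratio 2.85), 88.2%. The receptor genes Clec4n (68.2 against 8.16 CPM, log2 ratio 2.92), Fcgr3 (99.6 against 13.7 CPM, log2 ratio 2.77) and Ccr1 (36.7 against 4.76 CPM, log2 ratio 2.71), the integrin Itgam (36.6 against 4.54 CPM, log2 ratio 2.76) and the chemokine Ccl6 (149.6 against 19.4 CPM, log2 ratio 2.89) had 79.1 to 89.4% there. Ctss (323 against 40.3 CPM, log2 ratio 2.97), C1qa (35.2 against 4.20 CPM, log2 ratio 2.80) and Il1rn, the interleukin-1 receptor antagonist (44.8 against 6.01 CPM, log2 ratio 2.71), complete this set among the 25.

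Without the macrophage-marked cells several of these genes were no longer above the core. Lyz2 then had a log2 ratio of -0.56, and C1qa -0.0368. Gpnmb kept 0.53, and Mpeg1 0.0579. Of the 50 leading genes of both directions, 38 remained at least 2-fold different without those cells.

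Lysosomal and autophagy genes lay above the core in all 20 tested members. 15 of 20 were called higher (median 1.55). The cathepsins Ctsb (1486 against 247 CPM, log2 ratio 2.58), Ctsd (2586 against 437 CPM, log2 ratio 2.56) and Ctsl (1804 against 389.7 CPM, log2 ratio 2.21) and the sphingolipid activator Psap (1326 against 295 CPM, log2 ratio 2.17) were the most abundant. Macrophage-marked cells held 59.2% of d8 Ctsd and 47.1% of d8 Ctsb reads, so most Ctsb reads lay outside them. The autophagy receptor Sqstm1 (419 against 167 CPM, log2 ratio 1.32) had 11.6% there. The initiating genes Ulk1 (0.48), Becn1 (0.11) and Atg5 (0.28) were not called. Lgals3, a lectin that marks damaged lysosomes and macrophages (429 against 62.4 CPM, log2 ratio 2.76), is among the leading 25 and had 63.9% of its reads in macrophage-marked and 29.6% in the fibroblast-rich cells.

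Fibroblast matrix genes were higher in 16 of 17 tested members (median 1.67). Periostin, Postn, stood at 411 CPM in d8 and 59.4 CPM in the core (2.77, interval 2.67 to 2.92), and Bgn (486 against 77.6 CPM, log2 ratio 2.63), the crosslinking enzyme Lox (407 against 68.4 CPM, log2 ratio 2.56), fibronectin Fn1 (1231 against 241 CPM, log2 ratio 2.35) and Sparc (2174 against 542 CPM, log2 ratio 2.001) were close behind. Without the fibroblast-rich cells, which were chosen on these genes, 3 of the list were called. Fibrillar collagens differed less: Col1a1 was at 249 CPM in d8 and 81.3 CPM in the core (1.60), and Col3a1 at 141 CPM in d8 and 102 CPM in the core (0.46), which was not called. The other primed-tagged cells exceeded d8 in both, with 472 and 718 CPM. Against all primed-tagged cells in place of the core, Col1a1, Col1a2, Col6a1 and Col6a2 were lower in d8 (-0.48, -0.48, -0.43 and -0.61), whereas Postn (1.63) and Lox (2.03) remained at least 2-fold higher.

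Genes outside that list but held by the fibroblast-rich cells fill most of the remaining leading places. Inhba (482 against 72.5 CPM, log2 ratio 2.72) had 78.7% of its d8 reads in those cells, Ccl7 (171 against 24.2 CPM, log2 ratio 2.78) 80.7%, and Olr1, a scavenger receptor (47.6 against 5.56 CPM, log2 ratio 2.89), 81.3%. Thbd, thrombomodulin (22.3 against 2.15 CPM, log2 ratio 2.89), the cofactor Vgll3 (76.4 against 9.75 CPM, log2 ratio 2.85), the serpin Serpina3g (33.1 against 4.20 CPM, log2 ratio 2.71), the receptor Tnfrsf23 (49.7 against 6.12 CPM, log2 ratio 2.83) and the glutathione transferase Mgst1 (62.7 against 7.71 CPM, log2 ratio 2.87) had between 61.3 and 73.6%. Prl2c2, a placental proliferin (249 against 33.6 CPM, log2 ratio 2.85), had 76.9% and shares sequence with Prl2c3 (251 against 37.9 CPM, log2 ratio 2.70), so that reads of the pair may be split.

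Targets of TGF beta and YAP were higher in 12 of 14 tested (median 1.74), beside 14.6% of all tested genes. At a level limit of 50 CPM 6 were called higher, and against all primed-tagged cells 6 were. Thbs1, the TGF beta activator thrombospondin (777 against 121 CPM, log2 ratio 2.68), Ccn2 (119.6 against 23.02 CPM, log2 ratio 2.33) and Ankrd1 (34.5 against 7.94 CPM, log2 ratio 1.99) joined Inhba. The ligands Tgfb1 (33.4 against 14.6 CPM, log2 ratio 1.14) and Tgfb2 (131 against 43.1 CPM, log2 ratio 1.58) and the receptor Tgfbr2 (27.4 against 9.18 CPM, log2 ratio 1.48) were called, and Tgfbr1 (0.52) was not. Ankrd1, Tgfb1 and Tgfbr2 reached the level limit of 20 CPM through d8 alone. Smooth muscle genes were higher in 8 of 9 (median 1.99): Tagln (366 against 72.5 CPM, log2 ratio 2.32), Acta2 (583 against 117 CPM, log2 ratio 2.31), Tpm1 (1838 against 458 CPM, log2 ratio 2.003) and Cnn1 (66.4 against 21.7 CPM, log2 ratio 1.57). The late marker Myh11 was at 1.02 and 0.567 CPM, below the level limit. Among mesenchymal factors, Prrx1 (202 against 35.7 CPM, log2 ratio 2.47), Twist2 (36.1 against 5.78 CPM, log2 ratio 2.45), Vim (4671 against 1620.1 CPM, log2 ratio 1.53), Snai2 (28.2 against 9.41 CPM, log2 ratio 1.49) and Zeb2 (77.4 against 34.01 CPM, log2 ratio 1.16) were higher, and Zeb1 (0.35), Twist1 (0.60) and Cdh2 (0.0844) were not called. Without the fibroblast-rich cells 3 mesenchymal factors were called higher, in place of 5, and Prrx1 stood at 0.91.

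Matrix proteases and their inhibitors were higher together, 11 of 14 tested (median 1.46). Mmp13, a collagenase, stood at 39.9 CPM in d8 and 5.33 CPM in the core (2.69), Mmp10 at 345 CPM in d8 and 60.9 CPM in the core (2.48) and Mmp3 at 87.6 CPM in d8 and 32.8 CPM in the core (1.39), beside their inhibitors Timp1 (325 against 52.5 CPM, log2 ratio 2.61) and Timp2 (397 against 87.1 CPM, log2 ratio 2.18). Mmp14 (0.96) and Plau (0.60) were not called. Without the fibroblast-rich cells 6 of the list were called higher. The log2 ratio of Mmp3 was then -0.14, while Mmp13 kept 1.70 and Mmp10 1.07.

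The 3 metalloprotease promoters are shown because these genes stood higher together and AP-1 is known to act on this family. The AP-1 letters TGANTCA, searched on both strands (the motif is its own reverse complement), were in 4 of 11 listed genes with a RefSeq promoter (36.4%) and in 7.82% of all. The 4 were Plaur and the 3 metalloproteases. The latter are of 1 family and lie close together on chr9, so they are not independent members. Counted back from the start site, the matches, in capitals, begin at -35 (Mmp13), -63 (Mmp10) and -46 (Mmp3). The promoters are at chr9:7272264-7272513 (Mmp13), chr9:7502092-7502341 (Mmp10) and chr9:7445572-7445821 (Mmp3) of GRCm38.p6, all on the plus strand.
Mmp13: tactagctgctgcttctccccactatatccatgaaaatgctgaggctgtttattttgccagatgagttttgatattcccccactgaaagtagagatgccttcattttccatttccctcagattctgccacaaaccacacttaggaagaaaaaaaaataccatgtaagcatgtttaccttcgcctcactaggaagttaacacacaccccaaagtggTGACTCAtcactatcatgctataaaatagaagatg
Mmp10: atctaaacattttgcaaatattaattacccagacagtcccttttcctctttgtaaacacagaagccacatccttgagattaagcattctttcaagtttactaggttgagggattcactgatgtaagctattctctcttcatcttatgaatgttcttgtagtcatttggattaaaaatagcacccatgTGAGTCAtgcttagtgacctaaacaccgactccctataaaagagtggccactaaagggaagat
Mmp3: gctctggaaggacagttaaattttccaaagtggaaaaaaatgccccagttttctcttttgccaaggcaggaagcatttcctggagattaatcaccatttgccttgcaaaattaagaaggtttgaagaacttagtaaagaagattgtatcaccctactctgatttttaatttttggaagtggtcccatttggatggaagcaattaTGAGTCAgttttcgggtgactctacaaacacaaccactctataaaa
Of the genes for AP-1 subunits and immediate early factors, 4 of 12 were higher (33.3%, beside 14.6% of all tested genes). Among them were Fosl2 (69.8 against 20.3 CPM, log2 ratio 1.73) and Jun (523 against 219.7 CPM, log2 ratio 1.25), while Fos (0.78), Fosb (0.37) and Egr1 (-0.23) were not called. Against all primed-tagged cells 0 were called higher, with Fosl2 at 0.84 and Jun at 0.0662. In sum the list stood at 2506 CPM in d8, 1519 CPM in the core and 3252 CPM in the other primed-tagged cells.

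Epithelial genes formed the third set. Keratin genes Krt18 (1255 against 177 CPM, log2 ratio 2.82, interval 2.76 to 2.90) and Krt8 (1179 against 215 CPM, log2 ratio 2.45) were among the most abundant higher genes, and Krt19 (41.8 against 9.30 CPM, log2 ratio 2.05), Cldn6 (81.2 against 21.9 CPM, log2 ratio 1.85) and Dsp (81.4 against 25.2 CPM, log2 ratio 1.66) followed. Krt18 had 6.84% of its d8 reads in macrophage-marked and 9.78% in fibroblast-rich cells, both under the shares of all d8 reads those cells gave. 7 of 10 tested genes were higher (median 1.47). The adhesion gene Epcam went the other way (72.7 against 157 CPM, log2 ratio -1.10), and Cdh1 (65.4 against 34.01 CPM, log2 ratio 0.92) was not called. Cdh1 was highest in naive cells, at 198 CPM.

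Chemokine and inflammation genes were called higher in 9 of 9 tested (median 2.25), out of 18 listed. Members such as Cxcl1 reached the level limit through d8 alone, so the count is partly set by that limit. Ccl2 (284 against 58.96 CPM, log2 ratio 2.25) and Ptgs2, the inducible cyclooxygenase (265 against 61.1 CPM, log2 ratio 2.096), were the most abundant. Without the fibroblast-rich cells 3 genes of the list were called higher, and the log2 ratios of Ccl2 and Ptgs2 were 0.49 and 0.33. Il1rl1 (127 against 20.6 CPM, log2 ratio 2.56) and Cxcl1 (40.99 against 6.35 CPM, log2 ratio 2.51) had larger ratios, and Cxcl12 (57.01 against 23.5 CPM, log2 ratio 1.25) the smallest. Interferon-stimulated genes were fewer to pass: 5 of 8 were called, led by Ifitm3 (386 against 122 CPM, log2 ratio 1.66), and Irf1 (0.45) was not. B2m (776 against 210.3 CPM, log2 ratio 1.88), H2-K1 (74.1 against 26.4 CPM, log2 ratio 1.45) and H2-D1 (259 against 94.2 CPM, log2 ratio 1.45) of the MHC class I list were higher. Macrophage-marked cells stood at 3644 CPM in sum over that list, against 1409 CPM over d8. Without those cells the log2 ratio of H2-D1 was 0.0188 and that of H2-K1 0.53, whereas B2m kept 1.62, and 2 in place of 4 genes of the list were called higher. In the other direction, H2-T23 (22.7 against 54.5 CPM, log2 ratio -1.23) and the immunoproteasome gene Psmb10 (38.5 against 89.2 CPM, log2 ratio -1.19) were lower. Class I heavy chain genes share sequence, so reads may pass between them.

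Cell cycle inhibitors opposed the cycle genes. 10 of 15 tested genes of the p53 list, Cdkn2a and Cdkn2b included, were higher (median 1.29), beside 14.6% of all tested genes. Cdkn1a, which encodes p21, stood at 1110.0 CPM in d8 and 426 CPM in the core (1.38, interval 1.34 to 1.43). The locus neighbours Cdkn2a (76.2 against 14.7 CPM, log2 ratio 2.29) and Cdkn2b (93.2 against 21.2 CPM, log2 ratio 2.09), which mark culture-aged fibroblasts and are not p53 targets in the strict sense, had larger ratios. Cdkn2a had 59.5% of its d8 reads in the fibroblast-rich cells and Cdkn1a 24.1%, against 28.2% of all reads. Mdm2 (322 against 131 CPM, log2 ratio 1.29) and Ccng1 (620.1 against 272 CPM, log2 ratio 1.19) were higher, and Trp53 itself was lower by less than 2-fold (151 against 286 CPM, log2 ratio -0.92). Cdkn1a was high in the other primed-tagged cells as well (904 CPM). Against all primed-tagged cells 2 genes of the list were called higher, Cdkn2a (1.46) and Cdkn2b (1.38). Cdkn1a was then at 0.56, Mdm2 at 0.65 and Ccng1 at 0.57.

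The pathways of the added agents had 9 tested genes each, beside 14.6% higher and 9.24% lower of all tested genes. Lists of that size are too small for 0 calls to be set apart from those shares. Of 9 tested AMPK and p38 genes, 0 were called higher and 0 lower (median 0.36). The catalytic subunit Prkaa1 stood at 25.5 CPM in d8 and 19.6 CPM in the core (0.36), the upstream kinase Stk11 at 46.7 CPM in d8 and 44.6 CPM in the core (0.0660) and Mapk14, p38 alpha, at 37.4 CPM in d8 and 37.8 CPM in the core (-0.0148). Mapkapk2, a p38 substrate, came nearest to the limit (48.8 against 24.9 CPM, log2 ratio 0.94). RNA levels do not report kinase activity. On the LIF side 4 of 9 were higher (median 0.86): Osmr (29.2 against 5.22 CPM, log2 ratio 2.28), Stat3 (92.3 against 34.8 CPM, log2 ratio 1.38), Jak1 (137 against 59.5 CPM, log2 ratio 1.19) and Jak2 (21.9 against 10.1 CPM, log2 ratio 1.05). The STAT3 target Socs3 (34.4 against 18.8 CPM, log2 ratio 0.84) and the shared receptor chain Il6st (0.86) were not called, and Lifr was at 13.1 and 9.41 CPM, below the level limit. Without the fibroblast-rich cells 2 genes of the list were called, and the log2 ratio of Osmr was 0.79. Against all primed-tagged cells 1 LIF gene was called higher, and at a level limit of 50 CPM 2 were. Osmr and Jak2 reached the level limit of 20 CPM through d8 alone.

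Most naive factors were too low to be compared. 7 of 17 passed the level limit, of which 1 was called higher and 1 lower. Klf4, also a gene of epithelium and fibroblasts, was the higher one (244 against 100.2 CPM, log2 ratio 1.27), and Gbx2, described above, the lower. Zfp42 stood at 24.1 CPM in d8 and 31.7 CPM in the core, Dppa5a at 91.95 CPM in d8 and 119 CPM in the core and Esrrb at 7.78 CPM in d8 and 8.05 CPM in the core, against 564, 2343 and 123 CPM in naive cells. In macrophage-marked d8 cells these 3 genes stood at 24.6, 108 and 7.31 CPM, at about the d8 level. Germ layer genes were likewise few: 3 of 17 mesendoderm genes were tested, with T (73.9 against 95.1 CPM, log2 ratio -0.36) and Eomes (18.5 against 25.7 CPM, log2 ratio -0.46) not called and Lhx1 higher (31.9 against 11.6 CPM, log2 ratio 1.39). Of 11 neural genes 3 were tested and none called, and of 7 endothelial genes none passed the level limit, with Cdh5 and Cldn5 at 0 reads in the core, which allows a level of up to 0.340 CPM (3 reads).

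BMP genes were higher in 6 of 12 tested (median 0.90), led by the antagonist Grem1 (368 against 62.8 CPM, log2 ratio 2.53) and the ligands Bmp2 (58.5 against 16.6 CPM, log2 ratio 1.76) and Bmp4 (24.3 against 7.37 CPM, log2 ratio 1.60). Their Id target genes stayed within 2-fold, with Id1 at 0.19, Id2 at 0.39 and Id3 at 0.72. Wnt genes split, with Lef1 and Wnt8a lower and Dkk1 (23.96 against 6.24 CPM, log2 ratio 1.79), Dkk2 (82.5 against 31.4 CPM, log2 ratio 1.36) and Wnt5a (79.9 against 36.7 CPM, log2 ratio 1.10) higher, though without the fibroblast-rich cells Dkk2 and Wnt5a were at 0.88 and 0.50. Of 13 imprinted genes 15.4% were called higher and 7.69% lower, near the 14.6% and 9.24% of all tested genes. Beside Snrpn, H19 (23.1 against 6.69 CPM, log2 ratio 1.65) and Igf2r (88.1 against 43.4 CPM, log2 ratio 1.003) were the called ones of 13. The Myc family had 1 of 6 higher (16.7%, Mxd4 at 1.36), with Myc at 0.66 and all 6 ratios above 0. Hypoxia targets had 1 of 4 higher (25%, Ndrg1 at 1.11). Each of these shares rests on 1 gene, beside 14.6% of all tested genes. The proteasome had 2 of 36 lower (5.56%, beside 9.24% of all), with 33 ratios under 0 and a median of -0.59. Of 39 Hox genes 3 were tested, with 2 lower and 1 higher.

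Levels in the remaining populations place the 2 groups. Pou5f1 went from 56.8 CPM in d8 to 154 in d16 and 341 in d16+10p, with 317 in naive cells, and Psat1 from 24.3 to 56.4 and 189 CPM, with 156. Rrm2 and Scd2 had their lowest level in d8 among all 6 groups of cells, at 56.99 and 273 CPM. Dnmt3b and Adk had their highest level in the core, and the next was 65.7 CPM (d16+10p) and 65.9 CPM (other primed-tagged cells). Inhba, Postn, Krt18 and Acta2 had their highest level in d8 and stood in d16 at 121, 149, 321 and 223 CPM.

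**Figure D4:**
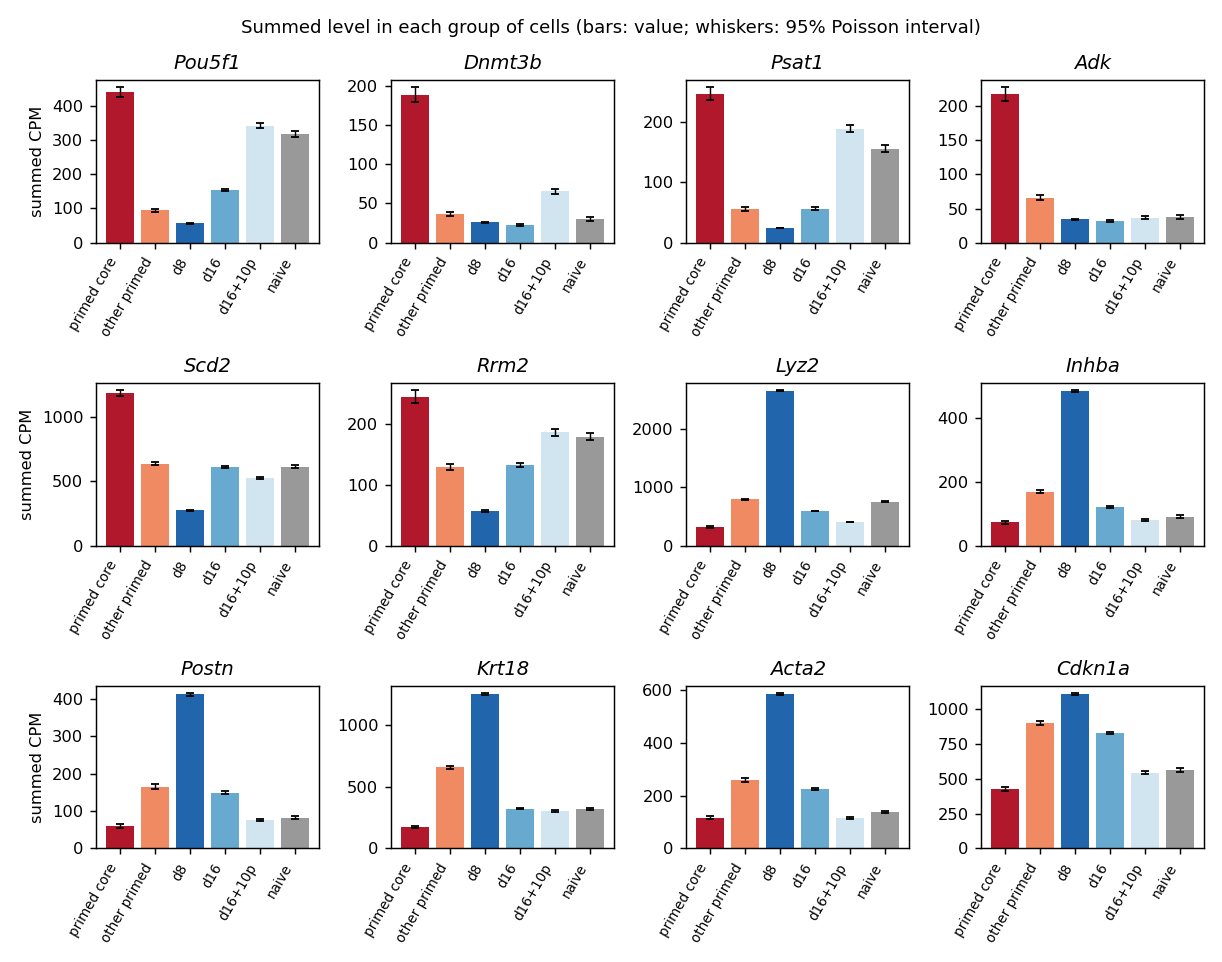
Summed level (vertical axis, CPM, from 0) of 12 genes in the primed core, the other primed-tagged cells, d8, d16, d16+10p and naive cells. Bars are the value of each group of cells from 1 sample each and whiskers the 95% Poisson interval of its reads, with Lyz2 at 2650.4 CPM in d8 against 316 in the core and Pou5f1 at 56.8 against 439.

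The choice of the core set the size of the contrast. Most called genes were more extreme in d8 than in the other primed-tagged cells. Of the 1147 higher genes, 1046 had a d8 level above those cells, and 724 of the 728 lower genes a d8 level below them. This order is partly built in, because the genes were called on d8 against the core. The other primed-tagged cells were themselves at least 2-fold from the core in the same direction for 542 higher (47.3%) and 228 lower genes (31.3%). Against all primed-tagged cells, 279 genes were higher and 238 lower in d8. Every one of the 50 leading genes remained at least 2-fold different. That outcome is partly built in too, because these genes were ranked on d8 against the core. The core is also part of all primed-tagged cells and gave 8819680 of their 27873209 reads.

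Sex-linked genes were compared as a check on the cells each group held. The study's methods list both the Oct4GIP line and the naive Rex1-GFP line as XX. Ddx3y, a Y-linked gene, stood at 31.8 CPM in d8 and 4.99 CPM in the core (2.46), and at 58.2 CPM in naive cells, the last above d8 although that line is listed as XX. Xist, which females transcribe from the inactive X, stood at 224 CPM in d8 and 103 CPM in the core (1.12) and at 287 CPM in the other primed-tagged cells. Of d8 Ddx3y reads 67.6% came from the fibroblast-rich cells and 15.1% from macrophage-marked cells. The source of the Ddx3y reads in naive cells was not tested.

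Background within d8 limits what the shares of cells say for higher genes. After thinning, Krt18 had a read in 73.6% of d8, 50.1% of core and 53.8% of macrophage-marked cells, so that the d8 share stood above that background. Postn gave 38.8%, 19.8% and 37.9%, with d8 and macrophage-marked intervals that overlap, and Inhba (44.9% and 46.7%) and Ccl2 (25.6% and 30%) were not above the macrophage-marked cells either. Those d8 shares did not exceed the macrophage-marked ones and are not read as expression across the d8 cells. Whether macrophage-marked cells transcribe these genes themselves was not tested, so they are not a sure background for them. The levels say where the reads were: Inhba stood at 1344 CPM in the fibroblast-rich cells, 482 CPM over d8 and 449 CPM in macrophage-marked cells. For lower genes the d8 share was under the macrophage-marked one for Mthfd2 (7.07% in d8, 8.76% in macrophage-marked cells, 45.2% in the core) and above it for Psat1 (9.85%, 7.87% and 63.3%) and Lef1 (4.36%, 2.36% and 31.5%). By level, 53 of the 728 lower genes stood in d8 at or below their level in macrophage-marked cells.

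**Figure D5:**
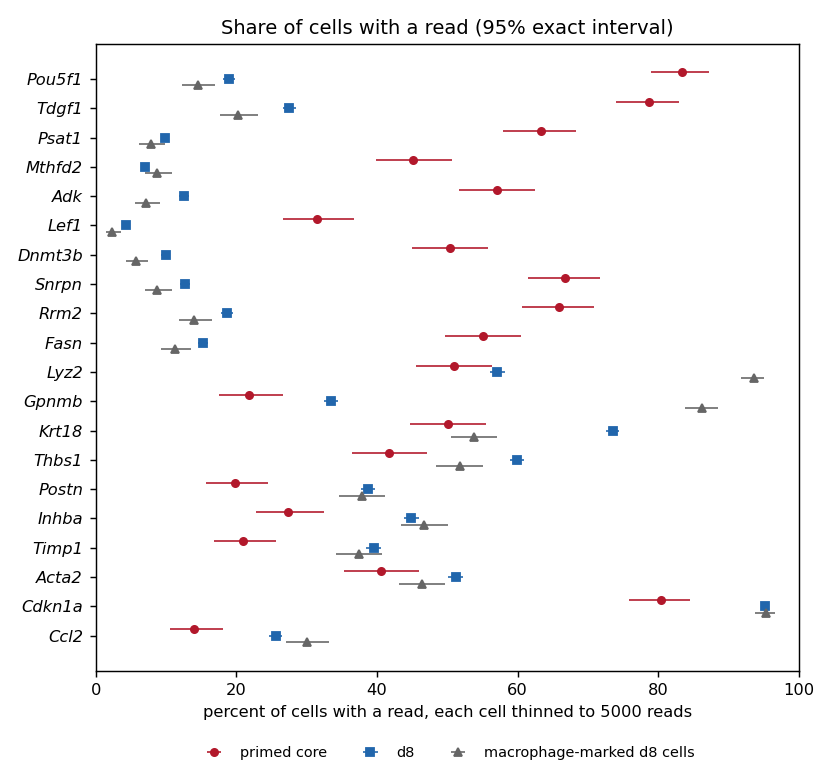
Percent of cells with at least 1 read of each gene (horizontal axis) after thinning every cell to 5000 reads, in the primed core (343 cells), d8 (8872 cells) and macrophage-marked d8 cells (890 cells), with 95% exact binomial intervals. The upper 10 genes are lower in d8, as Pou5f1 (83.4% core, 18.96% d8), and the lower 10 are higher in d8, where Postn lies on the macrophage-marked value.

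The antibodies that carried the tags bind CD9 and CD63, whose genes also differed. Cd63 stood at 1509.8 CPM in d8 and 313 CPM in the core (2.27) and Cd9 at 210.2 CPM in d8 and 91.95 CPM in the core (1.18). Both were higher in d8, and how far tag capture shaped which cells entered each group was not tested.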

How the data were processed

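Single cells of 5 tagged populations were run on 1 BD Rhapsody cartridge, and their cDNA and tags were sequenced as 2 libraries. The cDNA table used here holds raw read counts per gene symbol and cell, as the authors deposited them: per the study's methods and the submitters' processing notes, reads were trimmed (cutadapt 2.10) and aligned with Bowtie2 2.3.4.1 to Ensembl transcripts of GRCm38 (mm10), barcodes passed a knee-plot limit, each cell took its strongest tag, and cells with the lowest tag ratios were removed as doublets. Counting summed reads, not molecules, so amplification enters every level, and strand use is not given in the sources used here. The tag library was not used here. No further doublet caller or cell filter was applied.

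All 33963 genes of 17720 cells were read. Counts were summed over cells and divided by the group total to give CPM. A gene was compared if d8 or core reached 20 CPM and both together 100 reads, leaving out mitochondrial and gate genes. A pseudocount of 1 CPM entered each log2 ratio. Intervals at 95% are Poisson (levels), conditional binomial (ratios) and Clopper-Pearson (shares). Genes were named by rank, the 25 largest ratios each way, leaving out symbols of the form Gm and a number, Rik or -ps (22 of the higher and 114 of the lower genes), and from 44 hand-made lists. Some items are not reported here. The cell groups and lists were chosen with earlier results of these data known. Intervals were tested on simulated sums. Python 3.11.15, NumPy 2.4.6, SciPy 1.17.1 and, for TMM factors, edgeR 4.0.16 were used.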

Additional observations from a re-analysis of the deposited data

How the results depend on the processing

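Against all primed-tagged cells, 279 genes were higher and 238 lower in d8, beside 1147 and 728 against the core. The level limit moved them too: 1840 higher at 5 CPM, 604 higher and 473 lower at 50 CPM, and 2241 higher and 1135 lower with no limit. A pseudocount of 10 CPM gave 705 and 475, and a 4-fold rule 192 and 92. These settings change by construction which genes can be counted. TMM factors, totals without mitochondrial genes, means over cells, thinning, 250 or 450 core cells, limits on detected genes, leaving out the 5% deepest cells, and leaving out macrophage-marked or fibroblast-rich d8 cells each kept both counts within 1.5 times.

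Subtracting the profile over all cells from the core, scaled so that the macrophage list reached 0 in sum (a share of 18.8%), was added after the data were seen. It gave 1630 higher and 938 lower genes. Most of that profile came from d8 cells, so a wider contrast largely follows by construction. Its effect on single ratios is given with the macrophage genes above.

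Of 263 named genes, some changed direction. Without macrophage-marked d8 cells the log2 ratio was -0.56 for Lyz2, -0.66 for C1qb, -0.28 for Tyrobp, -0.13 for C1qc, -0.0368 for C1qa and -0.0372 for Ccl6. Against all primed-tagged cells it was -0.61 for Col6a2, -0.48 for Col1a2, -0.48 for Col1a1, -0.43 for Col6a1, -0.0551 for Cxcl12, -0.0336 for Col5a2, -0.0277 for Xist, -0.00212 for Ifitm1 and -0.000303 for Lhx1. Without the fibroblast-rich d8 cells it was -0.14 for Mmp3. No paired analysis was possible because each population is 1 sample without replicates.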

Other observations

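Olfactory and vomeronasal receptor genes, a group chosen after values were seen, appeared among the tested genes though neither culture is sensory tissue. Of 26 that passed the level limit, 9 were at least 2-fold lower in d8 and 0 higher, beside 9.24% and 14.6% of all tested genes. Vmn2r10 stood at 12.7 CPM in d8, 100.2 in the core, 32.1 in the other primed-tagged and 54.1 in naive cells. Olfr1388 ran 31.7, 204, 70.9 and 202 CPM in that order, and Olfr718-ps1 51.7, 251, 99.9 and 114 CPM. Others were level in every group, such as Olfr620, with 241, 237, 248 and 239 CPM. Reads were assigned to transcripts of families with near-identical copies, and which copy gave them was not tested.

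Amino acid transport and chromatin-binding genes outside the lists were also among the lower ones, chosen here after their values were seen. Slc7a5, the large neutral amino acid transporter, stood at 8.85 CPM in d8 and 56.6 CPM in the core (log2 ratio -2.55), and Bcat1, which acts on branched-chain amino acids, at 27.4 CPM in d8 and 149 CPM in the core (-2.40). Hmgb2, a chromatin protein of dividing cells, stood at 448 CPM in d8 and 2039 CPM in the core (-2.18), Anp32e, a histone chaperone, at 249 CPM in d8 and 1089 CPM in the core (-2.13) and Phc1, a Polycomb subunit, at 36.4 CPM in d8 and 148 CPM in the core (-1.998). Dut, which keeps uracil out of DNA, stood at 64.6 CPM in d8 and 376 CPM in the core (-2.52). On the higher side, Plin2, which coats lipid droplets, was at 632 CPM in d8 and 104 CPM in the core (2.59) and Cd36, a fatty acid receptor, at 109.8 CPM in d8 and 16.9 CPM in the core (2.63). Plin2 had 29.4% of its d8 reads in macrophage-marked and 48.01% in fibroblast-rich cells, and Cd36 82.5% and 10.5%. Crabp1, a retinoic acid binding protein (449 against 77.6 CPM, log2 ratio 2.52), and the metalloelastase Mmp12 (318 against 54.9 CPM, log2 ratio 2.51) were also higher, the latter with 65.5% of its d8 reads in macrophage-marked cells.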
